A study of Cucumis melo with 62 samples.

Results

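The 100 genes described here set the melon cultivars HD150 and HD252 apart, in the same direction, from 6 other cultivars by transcript level. All 8 were grown at the same location in the same year. Melon (Cucumis melo) fruits were harvested at maturity, about 45 days after flowering, and messenger RNA of the fruit was sequenced. At Weslaco, Texas, in 2019, 8 cultivars were sampled with 3 libraries each: HD150, HD252, TH-5, TH-6, PRIMO, OC164, CRUSER and Infinite Gold. F39 and TTDV were grown elsewhere, with 38 libraries from Georgia, North Carolina, Arizona, California and Uvalde (Texas) in 2019 and from Uvalde in 2018, and TTDV also from Indiana in 2019; each cultivar and field has 3 libraries except TTDV in Georgia, which has 2. All plants are labelled as wild type and no treatment is named. The labels leave it unsaid if a group's libraries are separate plants or fruits, so p-values measure the spread between these libraries, which may be technical.

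Members were chosen from the deposited values themselves, which are on a log2-like scale. For each of 29980 gene identifiers, the high score was the lower of the HD150 and HD252 means minus the highest mean of the other 6 cultivars, and the low score was the lowest mean of the other 6 minus the higher of the HD150 and HD252 means. The 50 genes of largest high score form the high list and the 50 of largest low score the low list. The Weslaco values therefore describe the choice and are given with no test, whereas the F39 and TTDV libraries played no part in it. Of all genes, 1605 had a high score over 0 and 12 over 1, and 1401 had a low score over 0 and 13 over 1. The files do not pair these identifiers with gene names, and none matched the reference gene table, so no role is given for any member.

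A ripe melon is a fleshy fruit in which sugars, pigments and aroma compounds accumulate while the cell walls soften, and its transcript pool shifts as ripening proceeds. All 8 Weslaco cultivars are labelled with 1 location and year, and a location is called a field here. F39 and TTDV were not grown there, so cultivar and field cannot be told apart when their levels are set beside those of Weslaco. In bulk fruit tissue, fewer cells of a type and less RNA per cell cannot be told apart either.

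Recovered read totals ran from 4041908 to 21290476 per library at Weslaco, with a median of 13828528 over the 6 HD libraries and 10516237 over the other 18. Over F39 and TTDV they ran from 6251302 to 31333150. Across the 17131 genes that passed the filter on low values at Weslaco, each of the 6 HD libraries was most similar to another library of its own cultivar. Of the other 18, 6 were most similar to a library of another cultivar: TH-6 replicates 1 and 3, PRIMO replicate 3, CRUSER replicate 2, and OC164 replicates 2 and 3. In OC164 alone that library was an HD library. OC164 replicate 2 had a Pearson r across genes of 0.953 with HD150 replicate 2 and 0.951 with the closest library of its own cultivar, and OC164 replicate 3 had 0.936 with HD150 replicate 1 and 0.934 with its own. Whether the labels of these 2 libraries are right was not tested. The 6 libraries of Uvalde 2019 go against their cultivar labels in several members given below, and tests of F39 and TTDV leave them out unless stated.

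MELO3C014991.2 had the largest score of either list. Its levels are given as normalised reads, the reads recovered from the deposited values divided by the library's size factor. HD150 had 1014, 915 and 1067 normalised reads, and HD252 had 509, 947 and 624. The other 18 libraries ran from 9271 to 105737, the lowest being CRUSER replicate 1 and the highest TH-6 replicate 1. The HD libraries lay below all others by a wide margin: the lowest of the 18 was 8.69 times the highest of the 6. The means were 846 ± 225 (SD, n = 6) in HD and 52468 ± 28771 (SD, n = 18) in the others, a 62.02-fold difference. This transcript took between 0.00409% and 0.00785% of all reads in the HD libraries and between 0.0494% and 0.870% in the other Weslaco libraries. F39 had a mean of 45720.5 ± 27135 (SD, n = 15) and TTDV of 48380 ± 21383 (SD, n = 17), and the lowest of all 38 F39 and TTDV libraries was still 11.2 times the highest HD library. Its low score was 4.39, against 1.54 for the next gene. On log2(normalised reads + 1), where differences at few reads weigh more, its score was 4.44, and the next gene was MELO3C014986.2 with 3.55.

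MELO3C012218.2, second on the deposited scale, had 517, 267 and 548 normalised reads in HD150 and 387, 215 and 429 in HD252. The other 18 libraries ran from 467 to 9520 with a mean of 3079 ± 2506 (SD, n = 18). Here the groups overlapped, since OC164 replicate 2 (467) lay below 2 of the HD150 libraries. PRIMO (7882, 6784 and 2322) and CRUSER (4749, 2127 and 9520) had the high values. MELO3C030496.2 was the 1 member at 0 reads in all 6 HD libraries. The other Weslaco libraries held 0 to 85.5 normalised reads of it with a mean of 32.5, at least 73.9-fold higher than the 3 reads over the 6 HD libraries that a count of 0 allows. CRUSER replicate 2 was also at 0, so the groups touched in 1 library. MELO3C014986.2, singled out after its values were seen, was at 0 in all 3 HD150 libraries and in 1 HD252 library, with 0.67 and 6.82 normalised reads in the other HD252 libraries. The other 18 libraries held 9.28 to 71.5.

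On the high side, MELO3C013004.2 had the largest score, 1.63, and it was first in 16 of 26 alternative settings (without 1 library or on another scale). HD150 had 63.3, 134 and 212 normalised reads and HD252 had 103, 122 and 65.7. CRUSER (18.6, 20.2 and 4.49) and OC164 (0, 16.1 and 5.77) came next, and the remaining 12 Weslaco libraries held at most 1.68. The groups did not overlap, and the HD mean was 28.8 times that of the others. The second, MELO3C017100.2, had 2418, 2841 and 4807 normalised reads in HD150 and 5119, 4463 and 2791 in HD252. OC164 again lay nearest, with 1440, 2410 and 326, so that its replicate 2 lay just below the lowest HD library. TH-5 held 346 to 762, and the remaining 12 libraries at most 119.

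**Figure D1:**
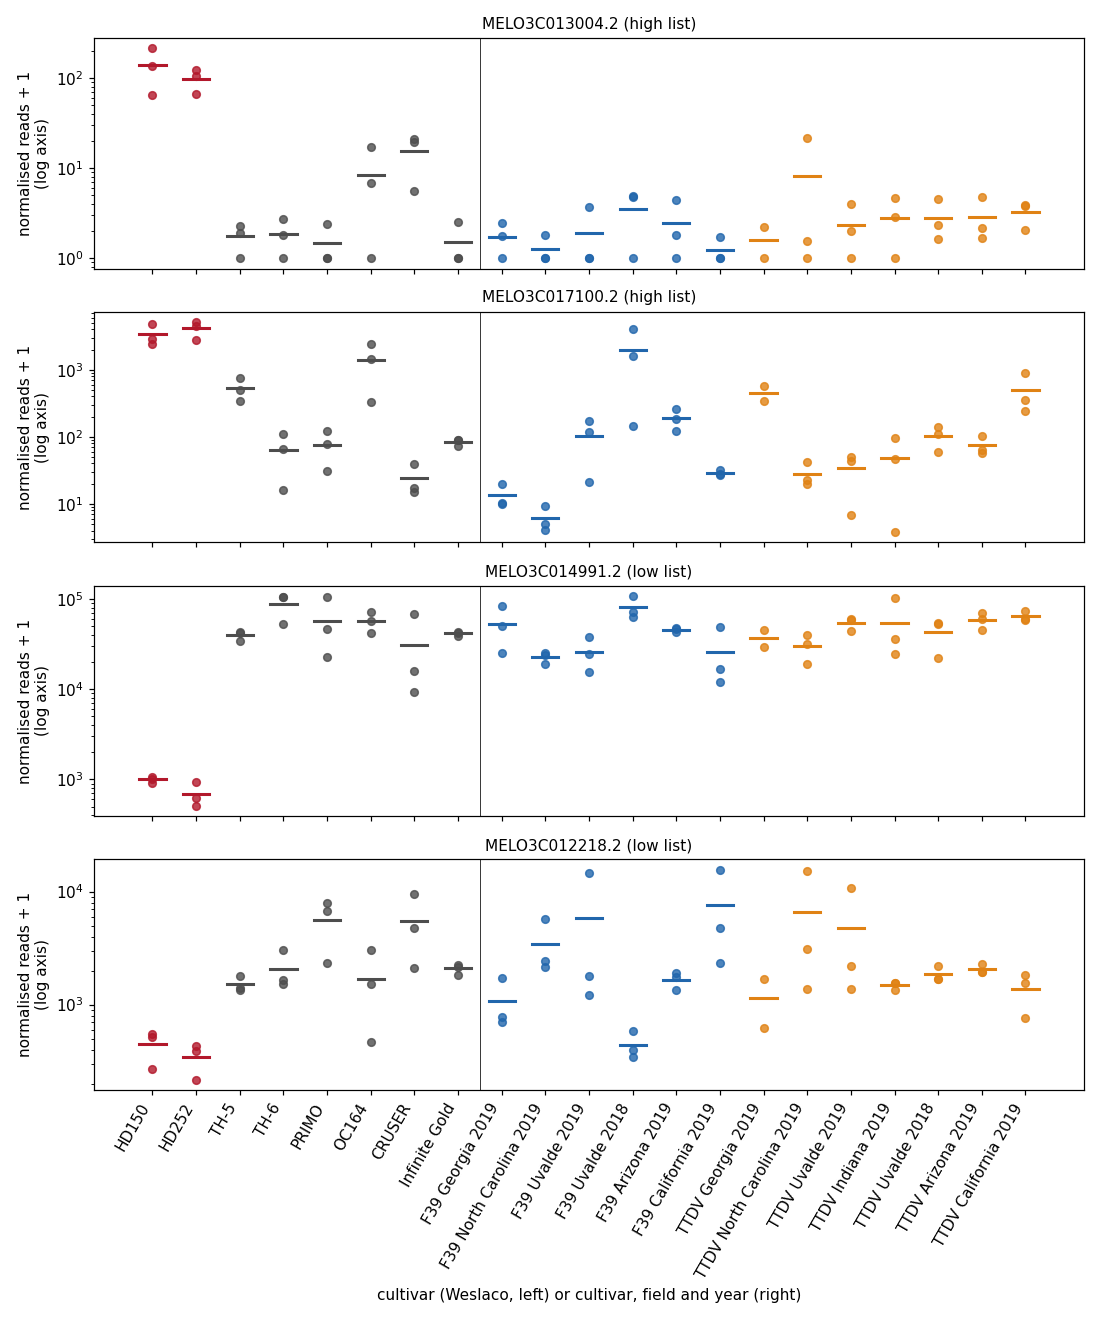
Normalised reads + 1 (log axis) of the 2 genes of largest high score and the 2 of largest low score, 1 point per library, with the 8 Weslaco cultivars to the left of the line and F39 and TTDV by field and year to the right. For MELO3C014991.2 the 6 HD libraries lie between 509 and 1067, below every other library plotted.

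The 2 lists differed in how their scores fell off. High scores ran from 1.63 to 0.642 with a median of 0.747. Low scores fell from 4.39 for the first gene to 0.667, with a median of 0.802. At the edge of the high list stood MELO3C019762.2 inside (0.642) and MELO3C005250.2 outside (0.638), and at the edge of the low list MELO3C024336.2 inside (0.66725) and MELO3C023218.2 outside (0.66721). Ranks near 50 are thus close calls. MELO3C023218.2, just outside, had HD libraries of 187 to 297 normalised reads that did not overlap with the other 18 (342 to 1936), while MELO3C024336.2, just inside, overlapped in 1 library (OC164 replicate 2, 316, against 228 to 387 in HD).

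In 12 of the 50 high members all 6 HD libraries lay above all 18 others, a pattern found in 0.216% of the genes tested at Weslaco. In 14 of the 50 low members all 6 lay below, a pattern found in 0.286%. Since the rule used these values, nothing is read from the excess. The HD mean was a median of 5.15 times the mean of the others over the high list (1.90 to 28.8). Over the 49 low members with reads in HD, the others' mean was a median of 4.56 times that of HD (1.97 to 223.6). The highest of these, MELO3C021220.2, rests on 4 reads in all 6 HD libraries, with a 95% exact Poisson interval of 70.45 to 662 for counting error only. Levels spanned a wide range: the HD mean of high members ran from 20.2 to 5937 normalised reads, with 11 members under 100, and the others' mean of low members ran from 32.5 to 52468, with 3 under 100.

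**Figure D2:**
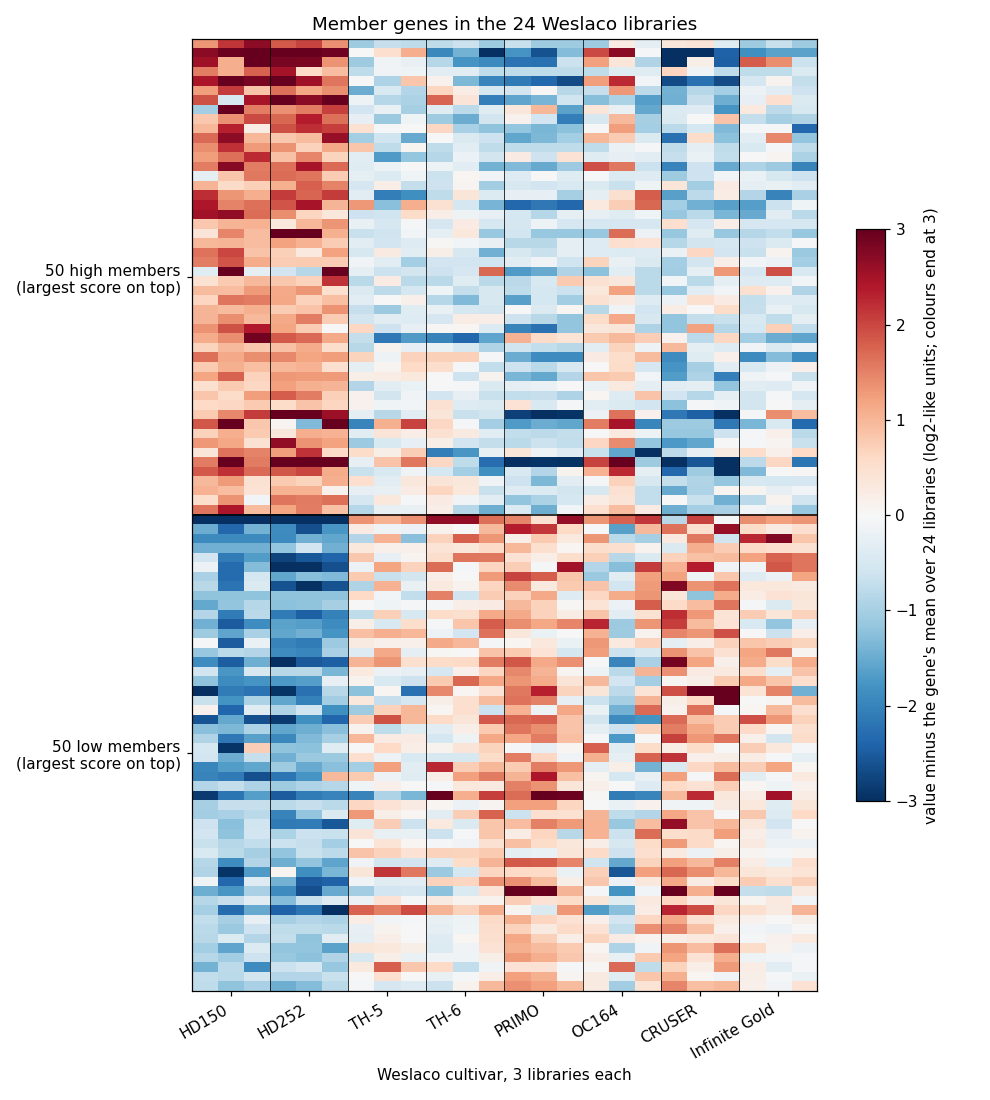
Deposited value of each of the 100 members in each of the 24 Weslaco libraries, minus the gene's mean over those libraries (log2-like units, colours ending at 3), with members in rows by score and cultivars in columns of 3 libraries. The HD150 and HD252 columns hold values that chose the members, and OC164 replicate 2 takes an HD-like colour in many rows of both lists.

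OC164 stood closest to the HD cultivars among the high members. It was the nearest other cultivar in 24 of 50, followed by CRUSER in 9, TH-6 in 7, TH-5 in 5, Infinite Gold in 3 and PRIMO in 2. Among low members TH-5 was nearest in 22 and OC164 in 15, with Infinite Gold in 5, TH-6 in 4, PRIMO in 3 and CRUSER in 1. One library of OC164 stood out. OC164 replicate 2 reached or passed the nearest HD library in 23 high and 29 low members, whereas the other 17 libraries did so in 1 to 12 high and 2 to 9 low members. The rule compares means, so the overlaps of OC164 replicate 2 did not keep these genes off the lists. On the HD side, HD150 was the cultivar nearer to the others in 24 high and 35 low members. The 35 include a tie, MELO3C030496.2, which was at 0 reads in both HD cultivars. HD150 replicate 3 was the single closest HD library in 22 low members.

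In some members single HD libraries carried the mean. MELO3C021237.2, the high member with the most reads in HD, had 612, 12276 and 640 normalised reads in HD150 and 527, 427 and 21141 in HD252. HD150 replicate 2 and HD252 replicate 3 were far above the rest, and the other 4 HD libraries lay within the 221 to 3129 of the other 18. It remained in the high list in 16 of the 24 lists made by leaving out 1 library. MELO3C025950.2, second by reads among low members, had 2489, 582 and 1431 in HD150 and 4964, 1279 and 1793 in HD252, against 761 to 21043 in the others, and it too remained in 16 of 24. In all 24 such lists, 8 of the high and 9 of the low members were kept, 7 and 8 of them among the first 12 by score. MELO3C013004.2, MELO3C017100.2, MELO3C014991.2 and MELO3C012218.2 were among those kept.

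Applying the same score to TH-5 and TH-6, the other pair of cultivars that share a name stem, gave 8 genes over 1 on the high side and 5 on the low side. The largest scores of that pair were 2.21 and 1.87. At rank 50 its scores were 0.424 and 0.333, compared with 0.642 and 0.667 for the HD pair. By the rule no gene can be high in both pairs, since each pair would have to lie above the other. Of the 50 high genes of TH-5 and TH-6, 1 was an HD low member.

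Within the lists, HD252 and HD150 are set side by side as a description, since the rule used both means. HD252 minus HD150 ran from -1.49 to 2.27 in the high list, with a median of -0.0065, and from -2.09 to 1.27 in the low list, with a median of -0.14. It was above 0 in 24 of 50 high and 15 of 50 low members. The median SE of 1 difference was 0.41 in the high list and 0.48 in the low list. The largest positive difference of the high list, 2.27 ± 0.53 (SE), was that of MELO3C010317.2, which had 288, 472 and 761 normalised reads in HD150 and 4581, 2877 and 1063 in HD252. Its 2 cultivars did not overlap. The largest negative, -1.49 ± 0.35 (SE), was that of MELO3C006335.2, with 889, 986 and 474 in HD150 and 387, 216 and 169 in HD252, again without overlap.

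In the medians of both lists, F39 and TTDV lay with the other 6 Weslaco cultivars and not with the HD cultivars. The members were chosen for extreme HD values, so a cultivar outside the choice would tend to lie with the other 6. The levels are therefore a description only. The median over the 50 high members was 209 to 445 normalised reads in the 6 HD libraries (median library 318) and 23.2 to 173 in the other 18 (51.1). It was 15.5 to 79.4 in the 15 F39 libraries (32.7) and 25.3 to 132 in the 17 TTDV libraries (90.1), and neither range reached the HD libraries. Over the 50 low members the median was 153 to 391 in HD (219), 385 to 1574 in the other 18 (921), 456 to 1615 in F39 (768) and 518 to 1499 in TTDV (763). The single other Weslaco library within the HD range was OC164 replicate 2.

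**Figure D3:**
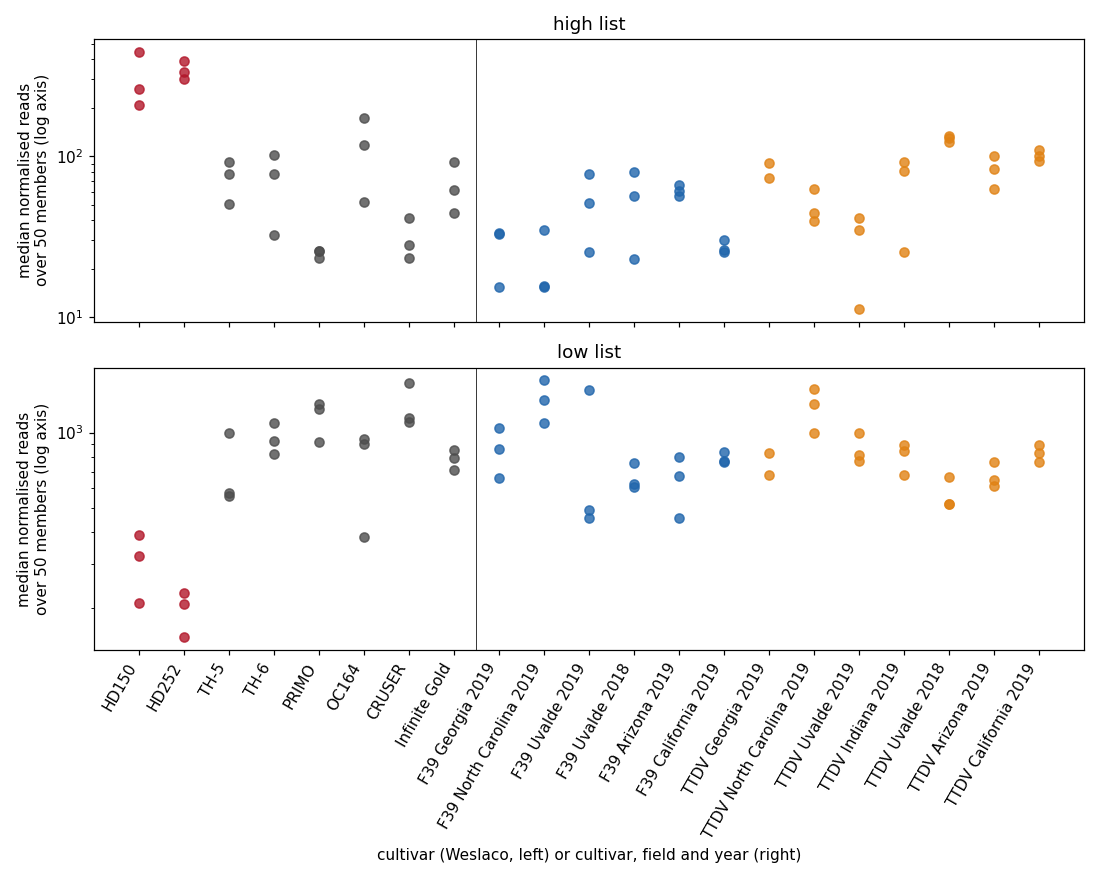
Median of the normalised reads over the 50 members of each list (log axis), 1 point per library, with Weslaco cultivars left of the line and F39 and TTDV by field and year, Uvalde 2019 included, right of it. In the high list every HD library is above every other library, and in the low list the 6 HD libraries are the lowest apart from OC164 replicate 2. The HD values chose the members.

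Taken gene by gene, the F39 mean over 5 environments (Georgia, North Carolina, Arizona and California in 2019, and Uvalde 2018) lay in the range of the other 6 cultivars or beyond its far end in 49 of 50 high members, and between that range and HD in 1. The TTDV mean did so in 40, and lay between in 10. No high member had an F39 or TTDV mean over these 5 environments at the HD level. The TTDV mean of Indiana, left out there, was at the HD level in 2 high members (MELO3C002729.2 and MELO3C006335.2). It lay between in 10 high members and with the other 6 in 38. For the low list the Indiana counts were 0, 13 and 37 in the same order. Among low members the F39 mean lay with the other 6 in 42, between in 7 and at the HD level in 1, and the TTDV mean lay with the other 6 in 41 and between in 9. Both cultivars lay with the other 6 in 39 high and 37 low members. The median distance from the nearest other cultivar, counted toward HD, was -0.90 for F39 and -0.40 for TTDV in the high list, and -0.42 and -0.33 in the low list. Single libraries did reach the HD level: at least 1 F39 library in 17 high and 21 low members, and at least 1 TTDV library in 23 of each list.

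**Figure D4:**
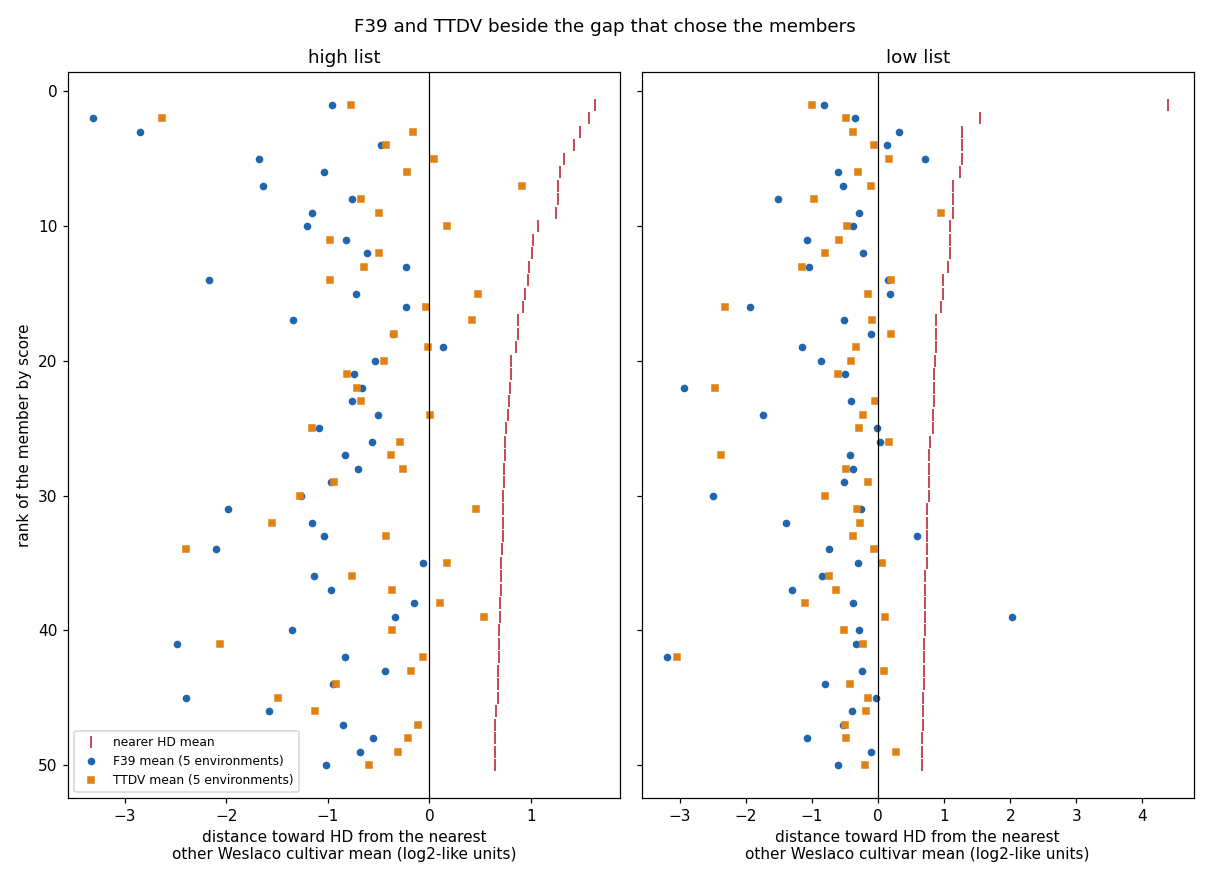
Position of the F39 mean (circles) and TTDV mean (squares) of each member relative to the nearest other Weslaco cultivar, counted toward HD in log2-like units, with the nearer HD mean as a tick and members ordered by score. Most points lie left of 0, on the side of the other 6 cultivars, and 1 F39 point of the low list reaches its HD tick.

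The low member whose F39 mean reached the HD level was MELO3C034878.2. HD150 had 78.7, 1.36 and 60.9 normalised reads and HD252 16.8, 0.62 and 0.98, while the other 18 Weslaco libraries held 63.2 to 281. HD150 replicate 1 overlapped with TH-5. F39 was at 0 in 11 of 15 libraries and held 1.24 and 2.19 in 2 more, but Georgia replicates 2 and 3 had 205 and 65.2. TTDV held 34.8 to 95.2 in all 17. The TTDV minus F39 difference was 1.92 ± 0.22 (SE; limma adjusted p 6.59e-07), and it was 2.33 without those 2 Georgia libraries. At Uvalde 2019 the labels ran the other way, with 64.95, 53.96 and 42.5 in the libraries labelled F39 and 0, 0 and 2.02 in those labelled TTDV.

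MELO3C030496.2, absent from the HD libraries, was the low member whose TTDV mean came nearest to HD. TTDV was at 0 in 11 of 17 libraries, with a highest value of 17.9 (Indiana), and F39 held 27.9 ± 21.7 (SD, n = 15), with 3 libraries at 0. The difference was -1.24 ± 0.22 (SE; limma adjusted p 0.000182). The libraries of Uvalde 2019 again ran the other way, at 1.12, 2.38 and 0 as F39 and 47.3, 23.6 and 32.3 as TTDV. At the far end, MELO3C018489.2 had 51.96 to 436 normalised reads in HD and 257 to 4549 in the other Weslaco cultivars, while F39 had a mean of 5773 ± 4299 (SD, n = 15) and TTDV of 5952 ± 5249 (SD, n = 17). Both means lay beyond those of all 8 Weslaco cultivars.

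In the high list, MELO3C006335.2 had the F39 mean that went farthest toward HD. F39 had 577, 222 and 566 normalised reads of it in Georgia and 27.2 to 311 in the other 4 environments, against 169 to 986 in HD and 25.9 to 202 in the other Weslaco libraries. The TTDV mean farthest toward HD was that of MELO3C010748.2. HD150 had 338, 39.5 and 521 and HD252 1093, 618 and 755, and the other 18 held 1.5 to 299. TTDV had 258 and 343 in Georgia, 119 to 292 at Uvalde 2018, 138 to 340 in Arizona, 191 to 526 in California, and 1.16, 5.61 and 125 in North Carolina. TTDV in Indiana had 11.2, 208 and 186. F39 held 0 to 52.97, so that the values of TTDV outside North Carolina and 1 Indiana library lay above all F39 libraries. MELO3C017100.2, second by high score, was in contrast the high member whose F39 and TTDV means lay farthest from HD.

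Some members differed between TTDV and F39 themselves, as did many other genes. A total of 43 high and all 50 low members passed the filter on low values in these libraries, and MELO3C013004.2 was among the 7 that did not: it held 0 to 3.83 normalised reads in F39 and 0 to 20.6 in TTDV. Over the 5 environments, 16 of the 43 high members were higher in TTDV and 0 lower by limma at an adjusted p under 0.05, beside 21.6% of all 16850 genes called in either direction (11.5% higher and 10.1% lower). At an unadjusted p under 0.05 there were 23, beside 34.1% of all genes. With the Uvalde 2019 libraries included as labelled the count was 11 of 45, all higher, beside 9.33% of all genes. The difference was above 0 in 36 of 43, with a median of 0.45 compared with 0.0093 over all genes tested. In 14 it was above 0 in each of the 5 environments, and in none was it above 0 in fewer than 2. These sign counts were not made over all genes, so nothing is read from them.

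The 2 members with the largest such differences were MELO3C010751.2 and MELO3C010748.2. MELO3C010751.2 had 16.3 to 138 normalised reads in the 15 F39 libraries and 72.2 to 1216 in the 17 TTDV libraries. The ranges overlapped only through the lowest TTDV values, 72.2 in North Carolina and 74.8 in Indiana. The difference was 2.69 ± 0.33 (SE; limma adjusted p 2.02e-06). HD150 had 1704, 603 and 3148 and HD252 2114, 2078 and 728, so TTDV came nearer to HD than F39 did without reaching its means. For MELO3C010748.2, with the values above, the difference was 2.55 ± 0.29 (SE; limma adjusted p 5.14e-07). At Uvalde 2019 it ran against the labels, with 72.8, 88.1 and 140 as F39 and 0, 0.98 and 1.01 as TTDV. MELO3C010751.2 did not: it held 42.6, 28.6 and 47.8 there as F39 and 58.6, 28.5 and 48.4 as TTDV, and the groups overlapped.

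Low members were split. By limma 3 were higher and 9 lower in TTDV over the 5 environments. These 12 of 50 were near the 21.6% of all genes. The median difference was -0.15, with 20 of 50 above 0. With Uvalde 2019 as labelled 5 of 50 were called, 2 higher and 3 lower. Without TTDV North Carolina replicate 3 the count was 21, beside 28.8% of all genes in that fit. The largest negative difference was that of MELO3C005859.2, which held 0 to 13.95 normalised reads in HD and 5.38 to 1818 in the other Weslaco libraries. F39 had 334, 1642 and 1384 in Georgia and 604, 992 and 4490 at Uvalde 2018, but 9.13, 49.2 and 58.2 in North Carolina, and TTDV held 13.7 to 396 over all its environments. The difference was -1.70 ± 0.42 (SE; limma adjusted p 0.00477), and it missed the threshold with Uvalde 2019 as labelled (adjusted p 0.0887). MELO3C003577.2 followed with -1.51 ± 0.26 (SE; limma adjusted p 0.000178). California held 14129, 8602 and 7779 in F39 and 1186, 1167 and 1062 in TTDV, and Georgia 3887, 8470 and 9024 in F39 and 906 and 927 in TTDV. In North Carolina TTDV replicate 3 stood out at 20768, above all other F39 and TTDV libraries of these 5 environments.

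**Figure D5:**
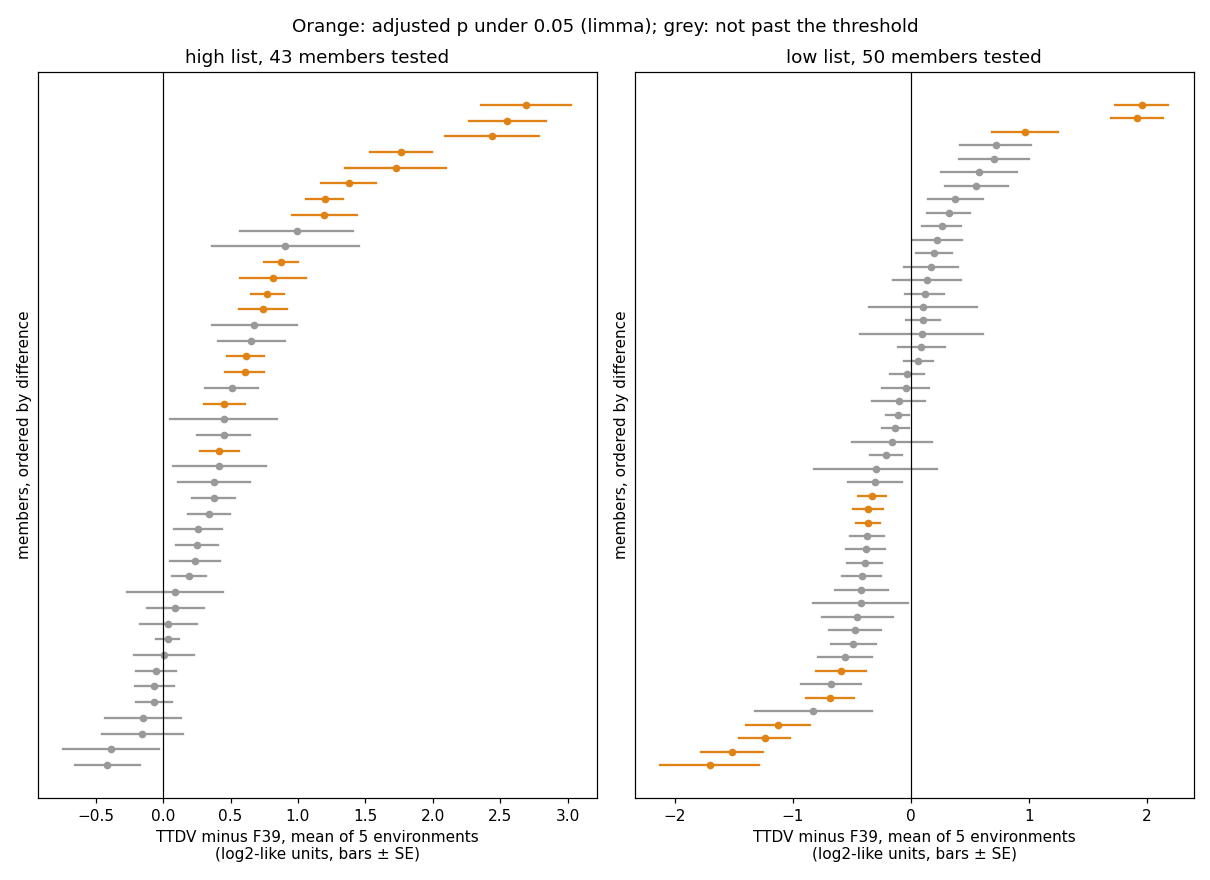
TTDV minus F39 as the mean of 5 environments (log2-like units, bars ± SE) for the 43 high and 50 low members tested, ordered by size, with orange for a limma adjusted p under 0.05. All 16 orange points of the high list lie above 0, and the 12 of the low list lie on both sides.

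Environment by environment, the median of the 43 high differences was above 0 throughout, at 0.66 in Georgia, 0.41 in North Carolina, 0.22 in Arizona, 0.79 in California and 0.42 at Uvalde 2018. No median over all genes is set beside these. In Georgia, limma called 7 high members higher in TTDV and 0 lower, beside 2.05% and 1.28% of all genes (3.34% in all). North Carolina also gave 7 and 0, beside 3.96% and 2.93% (6.9%). Arizona gave 1 and 0, beside 1.01% and 0.754% (1.77%). California gave 15 and 2, beside 12.1% and 9.63% (21.7%), and Uvalde 2018 gave 10 and 5, beside 13.5% and 13.1% (26.5%). For the low list the counts higher and lower were 0 and 2 in Georgia, 3 and 1 in North Carolina, 2 and 0 in Arizona, and 4 and 10 both in California and at Uvalde 2018. At Uvalde 2019 as labelled the high list leaned the other way, with 0 of 45 members higher (2.36% of all genes) and 4 lower (2.41%), 4.77% of genes called in all and a median of -0.41. The low list had 1 higher and 1 lower there. No test compared these counts between environments.

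Levels of some members differed between fields, as did those of many other genes. Within F39, 21 of 43 high and 23 of 50 low members differed between the 5 environments by the limma F test, beside 37.6% of all genes. Within TTDV, 12 of 43 and 18 of 50 differed between 6 environments, beside 24.7%, and the high count was near that share. The smallest adjusted p within F39 among high members was that of MELO3C002312.2 (1.28e-06), which held 1414, 1709 and 1255 normalised reads at Uvalde 2018 and 742 to 1110 in Georgia, but 202, 98.5 and 161 in North Carolina and 159, 216 and 404 in California. In TTDV it was that of MELO3C005578.2 (0.00184), with 646, 1090 and 396 at Uvalde 2018 and 183, 79.2 and 58.04 in Indiana.

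Among low members MELO3C008574.2 had the smallest adjusted p in both cultivars (5.80e-09 in F39 and 2.08e-05 in TTDV). North Carolina was highest in each, with 2118, 1676 and 1560 normalised reads in F39 and 1110, 1157 and 1648 in TTDV. Arizona was lowest in F39, at 65.6, 84.5 and 99.5. HD libraries held 24.51 to 62.1 and the other Weslaco libraries 56.5 to 681, so the North Carolina levels exceeded every Weslaco library. With Uvalde 2019 left aside, 17 of 50 low members had their highest F39 mean in North Carolina and 30 of 50 their highest TTDV mean. Replicate 3 of TTDV there stood far above replicates 1 and 2 in some members, as in MELO3C012218.2 (15360, beside 1381 and 3106). How many of all genes have their highest or lowest mean in North Carolina was not counted. These counts and those of the high members below therefore describe the members only. MELO3C014991.2 went the other way, with its lowest means of normalised reads there (25405, 24172 and 19235 in F39 and 40177, 31647 and 18845 in TTDV). In F39 this order depended on the scale, since California held 16795, 11942 and 49225. The median over the low members was highest in North Carolina in both cultivars, with group medians of 1354.5 in F39 and 1295 in TTDV. Of the high members, 21 had their lowest F39 mean and 24 their lowest TTDV mean in North Carolina. Their group median was lowest there in F39 (15.5) and highest in Arizona (60.5). In TTDV it was 44.6 in North Carolina and highest at Uvalde 2018 (130), and the libraries labelled TTDV at Uvalde 2019 lay lower still (34.9).

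The TTDV minus F39 difference depended on the field in 16 of 43 high and 12 of 50 low members (limma interaction F test, adjusted p under 0.05), beside 26.1% of all genes. The low count was near that share. The low count rose to 19 without F39 California replicate 3 (28.5% of all genes in that fit), to 19 without F39 Georgia replicate 2 (27.1%) and to 23 without TTDV North Carolina replicate 1 (37.1%). MELO3C017100.2 had the smallest adjusted p of the high list, 0.000212. At Uvalde 2018 F39 held 143, 1612 and 4052 normalised reads and TTDV 58.9, 109 and 137, with F39 replicate 1 near the TTDV values. In California the order was reversed, with 27.2, 26.3 and 30.6 in F39 and 240, 348 and 891 in TTDV, as it was in Georgia, with 9.12, 18.9 and 8.96 against 340 and 563. One F39 library of Uvalde 2018 thus reached the HD range of 2418 to 5119. MELO3C008574.2 had the smallest of the low list (0.00227), with F39 above TTDV in Georgia (527 to 985 against 239 and 269) and TTDV above F39 in California (230 to 390 against 126 to 242, with overlap) and Uvalde 2018 (193 to 285 against 97.1 to 167). Its call was lost with Uvalde 2019 as labelled (limma adjusted p 0.149).

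Some members lay near each other by identifier number. With another member within 10 identifier numbers there were 10 high and 14 low members, and 6 and 10 of them had that neighbour in their own list. How often other genes have such a neighbour was not counted, so nothing is read from these counts. The identifiers are used here as names, and positions in the genome were not used. MELO3C014986.2 and MELO3C014991.2 of the low list are 5 numbers apart, and MELO3C010748.2 and MELO3C010751.2 of the high list are 3 apart. In 4 pairs the members had successive numbers, and in 1 of these the first was a high and the second a low member.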

How the data were processed

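Total RNA of melon fruit was made into mRNA libraries, per the labels' protocols. The authors deposited 2 tables of variance-stabilised values, a log2 type of scale, for 24 Weslaco and 38 F39 and TTDV libraries. DESeq and DESeq2 are named in the submitters' processing notes, and no aligner, genome build or annotation is named in the sources at hand. The transformation was inverted from the tables' shared lowest value (4.182278), which gave whole reads, within 0.05, for at least 99.97% of values in every library. The recovered size factors matched factors computed over all 62 libraries together (SD 0.00397 on the log2 scale, 0.0102 and 0.00833 for each table alone), so both tables share 1 scale. No test was made across the tables. A value of 0 in a library covers fewer than 3 reads, for counting error only.

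The members and gene lists were chosen with earlier results of these data known. Differences were tested with limma 3.58.1 (trend, robust, R 4.3.3) on the deposited values, with 1 coefficient per group, on genes at least 1 unit above the lowest value (9.08 normalised reads) in at least 3 libraries of the fit (17131 at Weslaco, 16850 in F39 and TTDV). P-values were adjusted by Benjamini-Hochberg over all genes tested, with a threshold of 0.05. The F39 and TTDV fit took 32 libraries, without Uvalde 2019. Log2-like differences understate changes of low genes. A test of HD252 against HD150 was planned and is not reported, because the members were chosen from the means of those libraries. Its differences and errors come from the Weslaco fit. The tests were also run on simulated counts with 1 dispersion for all genes and no outlying libraries. That check does not cover libraries far from their group, as seen in these data. Alternatives were voom on recovered reads, quantile normalization, eBayes with neither trend nor robust option, no filter, a stricter filter (3 units), inclusion of Uvalde 2019, removal of F39 Georgia replicates 2 and 3, scores on log2(normalised reads + 1), and leaving out each library. As the identifiers had no names, genes were named by a rule: the 2 of largest score and 2 of most reads in each list, ranks 50 and 51, the largest differences, the smallest adjusted p of each F test, and the F39 and TTDV means nearest to and farthest from HD.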

Additional observations from a re-analysis of the deposited data

Results flagged for a closer look

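For 8 of the named members the TTDV minus F39 difference itself differed between the 5 environments by the limma interaction F test. The adjusted p-values were 0.000212 for MELO3C017100.2, 0.00227 for MELO3C008574.2, 0.00358 for MELO3C002312.2, 0.00494 for MELO3C010317.2, 0.0145 for MELO3C005859.2, 0.0201 for MELO3C012218.2, 0.0228 for MELO3C003577.2 and 0.0268 for MELO3C024336.2. MELO3C010317.2 moved most between fields: F39 held 996, 2650 and 1963 normalised reads at Uvalde 2018 and 0, 0.73 and 0.64 in California, while TTDV held 364, 339 and 188 and 490, 680 and 265. In MELO3C012218.2, F39 held 394, 585 and 342 at Uvalde 2018, beside 215 to 548 in HD, and 15556, 4756 and 2320 in California. Without F39 California replicate 1 or TTDV California replicate 3 the calls of MELO3C012218.2 and MELO3C024336.2 were lost (limma adjusted p 0.0571 and 0.0592, and 0.0554 and 0.0641), and that of MELO3C024336.2 also without F39 Uvalde 2018 replicate 1 (0.0547). With Uvalde 2019 as labelled, the calls of MELO3C008574.2 (0.149) and MELO3C012218.2 (0.0963) were lost. Groups of 2 or 3 libraries are too small for a test of single libraries.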

How the results depend on the processing

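MELO3C014991.2 remained first in the low list under log2(normalised reads + 1), under quantile normalization and without each library in turn, while the first high gene changed in 10 of these 26 settings (6 times to MELO3C017100.2, 2 times to MELO3C010751.2, and once each to MELO3C010748.2 and MELO3C005656.2). Scores on log2(normalised reads + 1) kept 25 of the 50 high and 21 of the 50 low members, while quantile normalization kept 38 and 42. Leaving out 1 library kept 31 to 49 high and 33 to 50 low members, the fewest without OC164 replicate 3 (31 high), HD150 replicate 3 (33 high) and OC164 replicate 2 (33 low). With the Uvalde 2019 libraries as labelled, low members called between TTDV and F39 fell to 5 and high members called between TTDV environments rose to 22. Without F39 Georgia replicates 2 and 3 the interaction called 22 low members. Leaving out each library gave 14 to 19 high and 9 to 21 low members for TTDV minus F39, 12 to 18 and 10 to 23 for the interaction, 18 to 24 and 18 to 31 for F39 environments, and 9 to 16 and 13 to 25 for TTDV environments. The share of all genes called moved as well in the fits where it is given above. For the other counts of this paragraph that share is not given, so nothing about the members is read from these shifts. The causes were not tested. Alternatives for HD252 minus HD150 are not reported, as that difference is given with no test. Over single named genes, 2823 values kept their call, 75 lost and 54 gained a call. No difference past the threshold in the main or the alternative fit changed sign. Differences past it in neither fit were counted as kept whatever their sign, and the F tests carry no direction. No paired analysis was possible because the columns carry library numbers that name no shared plant, plot or day. Members with few reads are limited by depth: 11 high members had under 100 normalised reads in HD.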
